A study of Mus musculus with 17 samples.

Results

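Peripheral and central GFP- RPE were compared to find out what position in the eye alone changes in the retinal pigment epithelium (RPE), since none of these cells showed the reporter. The comparison took the 5 libraries labelled as peripheral controls and the 6 labelled as central controls, 11 of the 17 libraries of the series, and the 6 libraries of peripheral GFP+ RPE entered no test. All mice, in both groups, were Serpine3GFP/+ at 2 months without treatment, with GFP placed behind the start codon of 1 Serpine3 allele, so GFP- describes a cell without visible reporter and not another genotype. The eyecup was cut at its middle line, and each library was made from a hand-picked pool of 10 to 15 cells by the labels (the methods give a smaller number). Mice 1, 2, 4, 5 and 7 gave a library of each group and mouse 6 a central one only, and mouse 1 stands for 2 animal numbers that share 1 label.

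The RPE is a single layer of pigmented cells behind the photoreceptors. It regenerates the visual chromophore, engulfs shed outer segment tips, carries ions and nutrients between choroid and retina, and lays down part of Bruch's membrane. Its cells differ in size and shape between the centre and the margin of the eye, where the layer continues into the ciliary epithelium. The markers given for this comparison were Wfikkn2, which encodes a secreted protein that binds myostatin and GDF11 of the TGF-β family, and Trpm1, which encodes a cation channel of melanocytes and of ON bipolar cells.

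The promoters of these markers are shown because the comparison is marked by these genes and MITF, a transcription factor of pigment cells, binds E-boxes. The windows run from 250 bases before to 50 bases after an annotated start, 5′ to 3′ on the strand of the gene (RefSeq, GRCm38.p6). Capitals mark CATGTG, its reverse complement CACATG, and CACGTG, which reads the same on both strands.
Wfikkn2, chr11:94242530-94242829, minus strand: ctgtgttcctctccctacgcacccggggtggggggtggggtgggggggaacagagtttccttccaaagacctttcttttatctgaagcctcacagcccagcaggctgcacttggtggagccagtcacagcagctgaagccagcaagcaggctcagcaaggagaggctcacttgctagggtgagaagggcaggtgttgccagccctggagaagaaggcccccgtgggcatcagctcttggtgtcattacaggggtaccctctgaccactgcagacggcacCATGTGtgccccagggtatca
Trpm1, upstream start, chr7:64153585-64153884, plus strand: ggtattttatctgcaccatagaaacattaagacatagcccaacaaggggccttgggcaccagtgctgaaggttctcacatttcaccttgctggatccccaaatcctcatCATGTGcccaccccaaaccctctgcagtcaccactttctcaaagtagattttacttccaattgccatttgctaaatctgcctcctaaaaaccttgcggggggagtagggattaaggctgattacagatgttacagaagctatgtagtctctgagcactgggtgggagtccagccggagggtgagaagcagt
Trpm1, downstream start, chr7:64185209-64185508, plus strand: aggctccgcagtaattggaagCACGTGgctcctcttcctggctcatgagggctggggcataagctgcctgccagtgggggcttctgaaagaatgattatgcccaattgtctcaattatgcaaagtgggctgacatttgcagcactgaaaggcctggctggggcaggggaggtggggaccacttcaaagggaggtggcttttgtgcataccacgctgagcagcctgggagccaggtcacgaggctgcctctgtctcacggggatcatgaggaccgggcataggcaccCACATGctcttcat
At least 1 of these motifs occurs in 20.4% of the 32851 windows of that length, so a match describes the letters and no more. The counts per gene do not tell which Trpm1 start was used.

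The central libraries of mice 4, 5 and 7 stood apart. The 13 mitochondrially encoded genes took 32.4%, 47.3% and 37.0% of their counts, against 12.5% to 30.4% in the other 8 libraries, and 6681, 5392 and 6430 genes reached 10 counts in them, against 7966 to 10543. Total counts ran from 9896118 to 19625206. Over the groups, the mitochondrial share was 19.7% ± 6.98 (SD, n = 5) in peripheral and 29.1% ± 12.2 (SD, n = 6) in central libraries and was lower in the peripheral library of 4 of 5 animals (two-sided exact permutation test, adjusted p = 0.329 over 12 library measures, none of which passed). By run of animal numbers, it averaged 15.1% against 17.98% in mice 1 and 2, and 22.7% against 34.6% in mice 4 to 7.

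**Figure D1:**
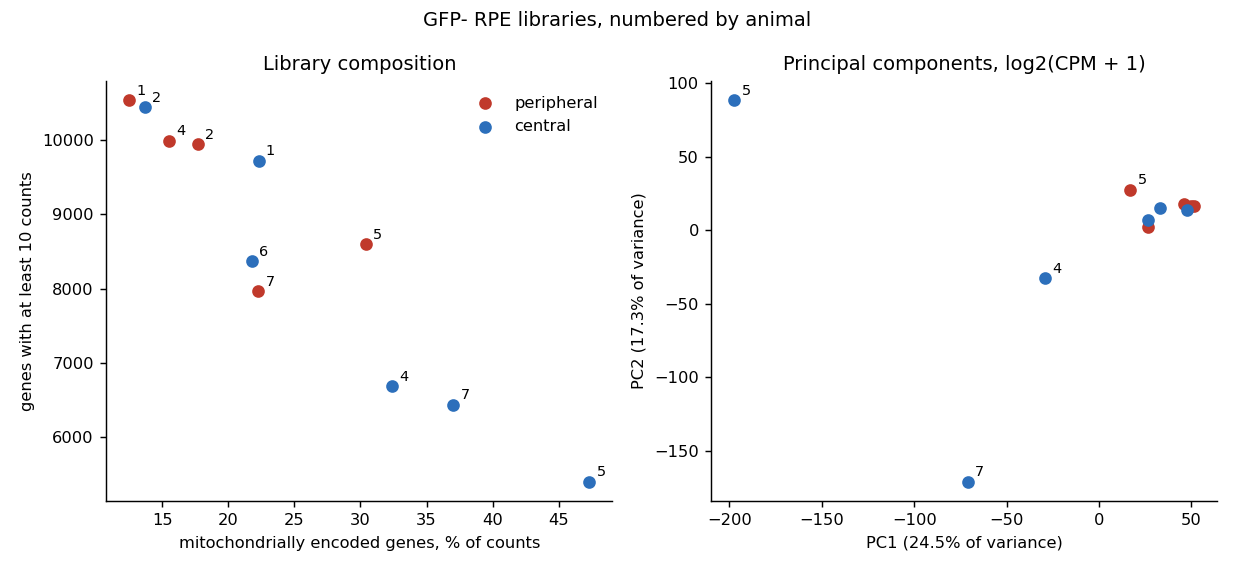
Left, genes with at least 10 counts against the percentage of counts in mitochondrially encoded genes; right, principal components 1 and 2 of log2(CPM + 1). Each point is a GFP- RPE library, red peripheral and blue central, numbered by mouse on the left and, on the right, only for the 4 libraries away from the cluster; the central libraries of mice 4, 5 and 7 hold 32.4%, 47.3% and 37.0% of their counts in mitochondrial genes and lie apart in both panels.

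With all 11 libraries and all genes tested, the groups did not separate beyond the spread of the libraries. Pseudo-F, the spread between groups over the spread within them, was 1.19 (exact permutation test over 462 assignments, p = 0.117) and rose to 1.399 once the central library of mouse 2 was left out (exact permutation test, p = 0.0397). Central libraries lay farther from the mean profile of their group, at a distance of 154 ± 32.1 (SD, n = 6) in log2(CPM + 1), than peripheral ones, at 106 ± 25.5 (SD, n = 5), which is 1.44 times as far (two-sided exact permutation test, p = 0.0281). This difference rested on single libraries: without the peripheral library of mouse 1 the exact permutation p was 0.0524, and without the central library of mouse 4, 5 or 7 it was 0.0635, 0.103 or 0.0714.

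Gene by gene, edgeR's quasi-likelihood test called 0 of 9535 genes (0.0%) with a change over 2-fold and a p under 0.01 after Benjamini-Hochberg adjustment. At an unadjusted p under 0.05 edgeR gave 98 genes higher in the periphery (1.03%) and 159 lower (1.67%), together fewer than the 476.8 that the threshold alone would give. At that threshold limma voom gave 747 higher and 79 lower, above that number and with the opposite balance, while its median log2 fold change over all genes shifted to 0.50. Within edgeR there were 228 higher and 106 lower with the animal as a block, and 246 higher and 73 lower with a covariate for the animal numbers' run. None of these 3 fits called a gene. DESeq2 gave 454 higher and 434 lower at an unadjusted p under 0.05. At the full threshold DESeq2, the program named in the study's methods, called 18 genes higher (0.16% of 11232) and 11 lower (0.0979%). Of these 29 calls only 6 passed edgeR's filter on low counts, all higher in the periphery: Wfikkn2, Tbx2, Pag1, Cpox, Ighmbp2 and Lgi1. In 20 of the 29 the lower group was at or under 3 counts in every library, and 9 rested on at most 3 libraries of the higher group.

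That no gene was called does not show that the groups are alike. Ranges did not overlap for 51 genes higher in every peripheral library (0.535%) and for 18 lower in every one (0.189%). Of the 462 assignments of libraries to groups 1 separates them in a given direction, a chance share of 0.00217 of genes. The 18 lower genes lay no higher than that share and the 51 higher ones above it. A gene near 0 in the centre could pass the filter through the 5 peripheral libraries alone, which bears on the 51. Levels below are CPM, counts relative to library size with TMM scaling over all 17 libraries, and in pools of cells a change in the number of expressing cells and a change in RNA per cell cannot be told apart.

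**Figure D2:**
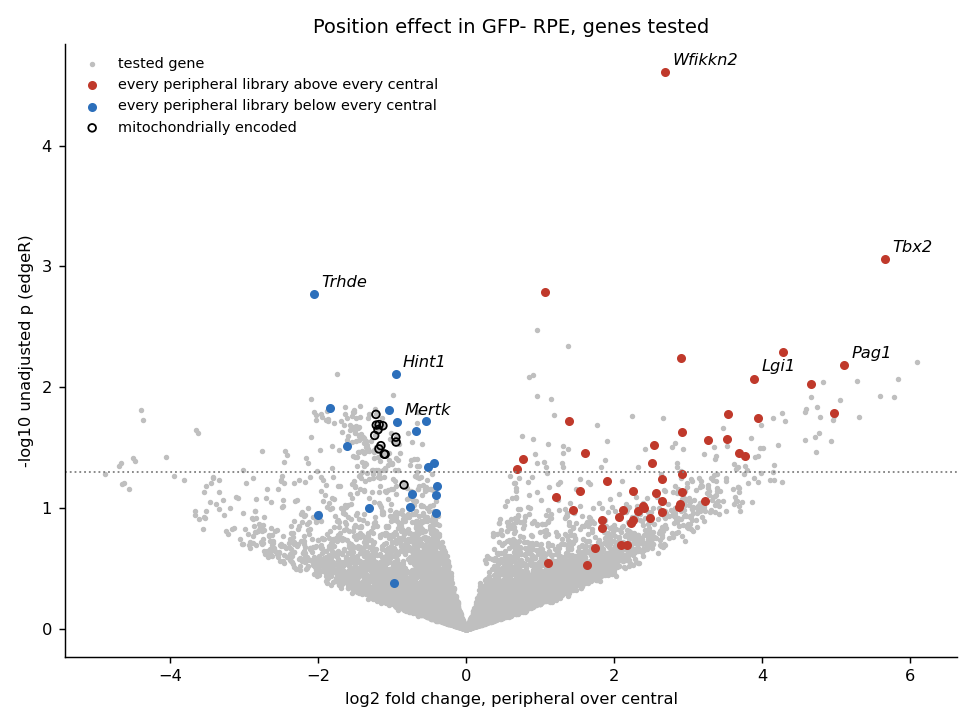
Unadjusted p of edgeR's quasi-likelihood test (−log10, vertical) against the log2 fold change of peripheral over central GFP- RPE (horizontal), 1 point for each of 9535 genes. Red and blue mark the 51 and 18 genes whose ranges do not overlap, open circles the 13 mitochondrially encoded genes; Wfikkn2 stands highest.

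Wfikkn2 was 6.45-fold higher in the periphery. It was at 91.7, 109, 140, 320 and 168 CPM in the peripheral libraries of mice 1, 2, 4, 5 and 7. It was at 39.4, 25.2, 11.7, 18.8, 24.0 and 36.5 CPM in the libraries of the centre from mice 1, 2, 4, 5, 6 and 7. The lowest peripheral library thus exceeded the highest central one, and the difference had the same direction in 5 of 5 animals. The log2 fold change of 2.69 ± 0.47 (SE) had the smallest p of all genes, but its adjusted p of 0.234 by edgeR missed the threshold, whereas DESeq2 gave 0.000159. Every other gene had an adjusted p of at least 0.9995 by edgeR. Within the runs of animal numbers, the means were 100.2 against 32.3 CPM in mice 1 and 2 and 210 against 22.7 CPM in mice 4 to 7. Without the 3 central libraries that stood apart the log2 fold change was 2.49.

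The other genes of the TGF-β family showed no common direction. Of 41 listed ligands, receptors, antagonists and SMAD proteins 25 were tested, 12 higher and 13 lower, with a median log2 fold change of −0.02 beside 0.01 over all genes. Of the ligands of WFIKKN2, myostatin (Mstn) had at most 1 count in any library. Gdf11 had 249 to 882 counts in peripheral and 5 to 891 in central libraries (log2 fold change 1.42, unadjusted p = 0.191 by edgeR). Bmp4, a dorsal signal of the eye, was at 278 ± 48.0 CPM (SD, n = 5) against 467 ± 206 CPM (SD, n = 6) and lower in the peripheral library of 5 of 5 animals, with a log2 fold change of −0.73 (edgeR, unadjusted p = 0.0284) that was −0.37 without the 3 central libraries.

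Trpm1 was high in 3 of the 5 peripheral libraries. Those of mice 1, 2 and 7 held 597, 560 and 212 counts, or 32.4, 28.1 and 20.4 CPM, and those of mice 4 and 5 held 2 and 1 counts. The libraries of the centre from mice 1, 2, 4, 5, 6 and 7 held 4, 0, 0, 3, 3 and 0 counts. The groups overlapped and the gene was below edgeR's filter. The mean of log2(CPM + 1) was higher by 2.67 in the periphery (two-sided exact permutation test, p = 0.0411), which did not hold after adjustment over the 3 genes tested this way (adjusted p = 0.0909). DESeq2 gave an adjusted p of 0.0220. Of the other markers of bipolar cells, Grm6 had at most 1 count in any library. Gng13 had 53, 42 and 41 counts in the peripheral libraries of mice 1, 2 and 7, where Trpm1 was high. It had 53 and 33 in the central ones of mice 1 and 2, which held 4 and 0 counts of Trpm1, and 0 in the other 6 libraries. Gpr179 had 73, 7, 1, 2 and 12 counts in the peripheral libraries of mice 1, 2, 4, 5 and 7, beside 0 to 82 in central ones. The 11 bipolar markers other than Trpm1 summed to 12.9 to 21.9 CPM in peripheral and 7.10 to 31.8 CPM in central libraries, ranges that overlap, and their part in the counts of Trpm1 was not tested. Of 24 TRP channels 7 were tested, 5 higher and 2 lower, and Trpm3 was at 1730 ± 257 CPM (SD, n = 5) against 1546 ± 318 CPM (SD, n = 6). Exons of Trpm1 overlap the annotated Gm44722, and strand is not given in the sources used here.

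**Figure D3:**
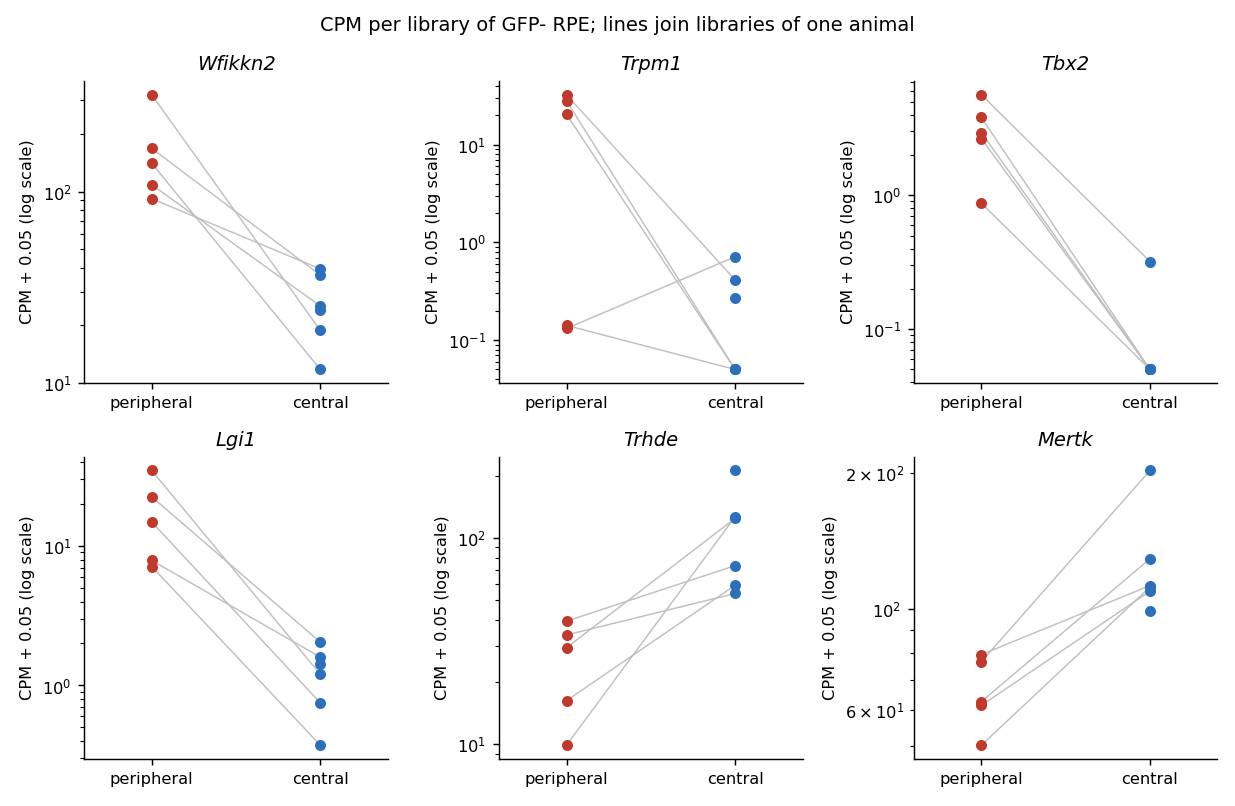
CPM + 0.05 on a log axis for 6 genes in each GFP- RPE library, red peripheral and blue central, with lines joining the libraries of one animal. The groups do not overlap for Wfikkn2, Tbx2, Lgi1, Trhde and Mertk, whereas 2 of the 5 peripheral libraries lie at the central level for Trpm1.

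Serpine3, the gene of the reporter, checked the labels of GFP status and not those of position. It had 5 counts in the peripheral library of mouse 1 and 0 in the other 10 libraries, which allows up to 3 counts in each, and 107 to 576 counts in the GFP+ RPE libraries. Pmel, which forms melanosome fibrils, had 47 and 309 counts in the peripheral libraries of mice 1 and 2 and at most 3 in the other 9. With the central libraries at the floor of 3 counts the peripheral mean was at least 11.2-fold higher, but it rested on those 2 libraries (exact permutation test, adjusted p = 0.0909). The study's text lists 7 genes for peripheral RPE of macaques or humans, from bulk RNA and not from mouse pools. Of these 3 were tested here, with log2 fold changes of 0.56 for Nog, a BMP antagonist, 0.34 for Dapl1 and −0.17 for Tspan10. That of Nog was 0.0023 without the peripheral library of mouse 5, at 506 CPM, and 1.12 without the 3 central libraries.

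Tbx2, a T-box factor of dorsal eye identity, had the highest fold change of the genes named for ranges that do not overlap. It had 53, 111, 18, 46 and 27 counts in the peripheral libraries of mice 1, 2, 4, 5 and 7, 5 counts in the central library of mouse 2 and 0 in the other 5 central ones. It thus passed the filter through the 5 peripheral libraries alone, which bears on its lack of overlap and on its rank. The log2 fold change was 5.65 ± 1.398 (SE), with an adjusted p of 0.9995 by edgeR and 0.00375 by DESeq2. Tbx5, another dorsal factor and below the filter, had 91, 91 and 51 counts in the peripheral libraries of mice 2, 4 and 5, 40 in the central library of mouse 2 and at most 2 elsewhere. Of 19 genes of axis patterning 7 were tested, 4 higher and 3 lower. How dorsal and ventral cells were sampled is not given in the sources used here.

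Lgi1, which encodes a secreted ligand of ADAM22 and ADAM23, was detected in all 11 libraries at different levels. It was at 22.5, 7.08, 34.8, 7.83 and 14.8 CPM in the peripheral libraries of mice 1, 2, 4, 5 and 7 and at 0.323 to 2.00 CPM in the central ones. The central libraries of mice 1, 2, 4, 5, 6 and 7 held 22, 6, 12, 7, 19 and 6 counts. Lgi1 would not have passed the filter on these alone, which bears on its lack of overlap and on its rank. Its log2 fold change was 3.89 ± 1.304 (SE), with an adjusted p of 0.9995 by edgeR and 7.54e-06 by DESeq2, and was 3.82 without the 3 central libraries.

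Fold changes of all genes tested ran from −4.88 to 6.09 on the log2 scale. Among genes without overlap of the ranges, at a mean count of at least 10 in the higher group, the other 9 of the 11 highest ran from 3.52 for Fbxw9 to 5.10 for Pag1. Pag1, a membrane adaptor that recruits the kinase CSK, was at 16.5 ± 20.8 CPM (SD, n = 5) against 0.461 ± 0.731 CPM (SD, n = 6), with 53.1 CPM in the peripheral library of mouse 5. Igsf21, a synaptic adhesion protein, was at 12.1 ± 9.28 against 0.366 ± 0.851 CPM. Cpox, an enzyme of haem synthesis, was at 13.4 ± 14.2 against 0.518 ± 0.643 CPM. Most of these genes were near 0 in several central libraries, so that their fitted fold changes depend on the prior count. None of them would have passed the filter on the central libraries alone, so the filter bears on their place here. Swap70, an actin-binding signalling protein, was at 23.9 ± 10.1 against 1.53 ± 1.95 CPM and reached 5.14 CPM in the central library of mouse 6, as Plcxd2 reached 5.28 CPM in that of mouse 4. Ighmbp2, a helicase, was at 4.11 ± 2.19 against 0.207 ± 0.308 CPM, and Pacs1, Plcxd2, Proser3 and Fbxw9 made up the rest. Exons of Cpox, Ighmbp2, Swap70, Lgi1 and Fbxw9 overlap those of Gpr15, Mrpl21, Gm45515, Gm42723 and A230103J11Rik, and exons of Proser3 those of 1700019A23Rik and Hspb6.

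**Figure D4:**
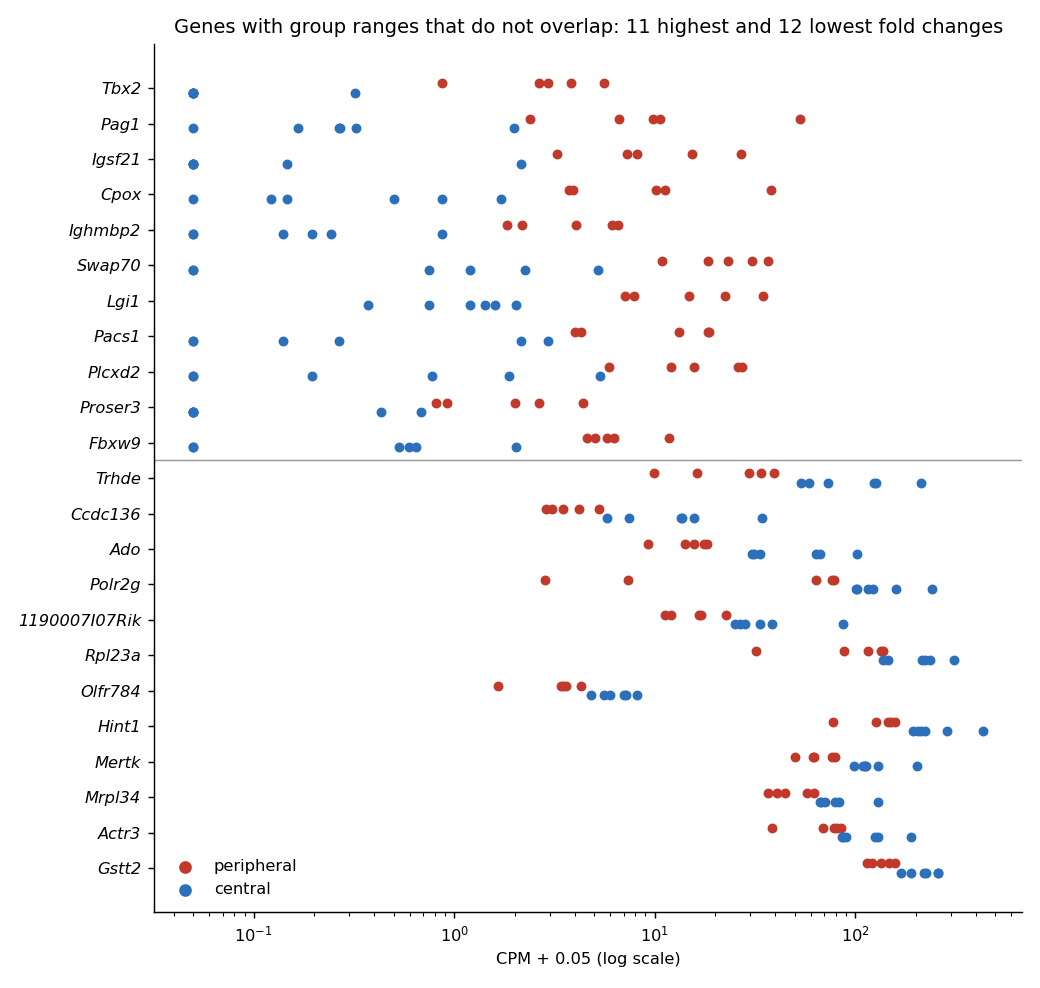
CPM + 0.05 on a log axis in each GFP- RPE library, red peripheral and blue central, for the 11 highest and 12 lowest fold changes among genes whose ranges do not overlap. Most of the higher genes shown are near 0 in several central libraries and the lower genes shown are present in both groups. A gene at 0 in every peripheral library passed the filter only with enough counts in 5 central ones, which Dnaaf4 did not reach. The plot holds no gene at 0 in every peripheral library.

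Among the genes named for ranges that do not overlap, those lower in the periphery had smaller fold changes. The 18 genes lower in every peripheral library (0.189%) were no more than the chance share given above. Trhde, the ectoenzyme that degrades thyrotropin-releasing hormone, was at 33.9, 39.5, 9.86, 16.2 and 29.4 CPM in the peripheral libraries of mice 1, 2, 4, 5 and 7. It was at 53.8, 73.4, 127, 59.0, 212 and 124 CPM in the libraries of the centre from mice 1, 2, 4, 5, 6 and 7. The ranges did not overlap, and the log2 fold change was −2.06 ± 0.55 (SE), with an adjusted p of 0.9995 by edgeR and 0.0517 by DESeq2. Without the 3 central libraries it was −2.13. Exons of Trhde overlap the annotated Gm15723.

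Mertk, the receptor kinase with which RPE cells engulf outer segments, was at 50.2 to 79.5 CPM (median 62.6) in peripheral and 98.9 to 202 CPM (median 112) in central libraries. The log2 fold change was −0.94 ± 0.36 (SE), with an adjusted p of 0.9995 by edgeR, and −0.77 without the 3 central libraries. The other 10 were Ccdc136, Ado (a thiol dioxygenase), Polr2g (a subunit of RNA polymerase II), 1190007I07Rik, Rpl23a, Olfr784, Hint1, Mrpl34, Actr3 and Gstt2 (a glutathione transferase), with log2 fold changes from −2.01 to −0.68. In Polr2g the peripheral libraries of mice 5 and 7 were at 2.77 and 7.32 CPM, the other 3 at 63.6 to 78.5 CPM and the central ones at 101 to 242 CPM. Rpl23a may share reads with processed copies, and exons of Rpl23a and Ccdc136 overlap other annotated genes.

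Dnaaf4, which takes part in the assembly of ciliary dynein arms, was below edgeR's filter and was singled out after its values were seen. It had 0 counts in all 5 peripheral libraries, which allows up to 3 in each. The libraries of the centre from mice 1, 2, 4, 5, 6 and 7 held 45, 48, 63, 1, 85 and 7 counts, so that only that of mouse 5 lay within this limit. DESeq2 gave an adjusted p of 1.04e-05.

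RPE identity genes showed no common direction. Of 20 listed, 18 were tested, 8 higher and 10 lower with a median log2 fold change of −0.15 and none called. Only Mertk, above, had an unadjusted p under 0.05 by edgeR or ranges that did not overlap. Over all genes tested the shares lower in these ways were 1.67% and 0.189%. Rpe65, the isomerase of the visual cycle, was at 6894 ± 2743 CPM (SD, n = 5) against 8546 ± 2947 CPM (SD, n = 6). Otx2, an RPE transcription factor, was at 587 ± 76.6 against 592 ± 94.8 CPM, and Ezr, the apical protein ezrin, at 738 ± 75.4 against 747 ± 193 CPM. Best1, a chloride channel that defines RPE, was at or under 2 counts in every library. Of 9 visual cycle genes tested 7 were lower, with log2 fold changes from −0.29 to 0.54.

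Of 24 pigment genes 20 were tested, 12 higher and 8 lower with a median log2 fold change of 0.48. Tyrp1, a melanin enzyme, was at 18.8, 123, 28.9, 11.6 and 2.60 CPM in the peripheral libraries of mice 1, 2, 4, 5 and 7 and at 0 to 9.16 CPM in central ones. The ranges overlapped, though the peripheral library was higher in 5 of 5 animals, and the log2 fold change of 3.77 ± 1.67 (SE) had an adjusted p of 0.9995 by edgeR. Slc24a5, an exchanger needed for pigment, was at 218 ± 65.8 against 138 ± 59.6 CPM. Dct, another melanin enzyme, was at 579 ± 227 against 371 ± 216 CPM, with a log2 fold change of 0.64 that was 0.10 without the 3 central libraries. Mitf itself had a log2 fold change of −0.19, and 8 of 12 tested genes of MITF and its targets were higher.

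Of 14 tested basement membrane and matrix genes 11 were higher, with a median log2 fold change of 0.39. Col8a2, a collagen of Bruch's membrane, was at 614 ± 232 CPM (SD, n = 5) against 331 ± 91.6 CPM (SD, n = 6) and higher in 5 of 5 animals, with a log2 fold change of 0.90 ± 0.30 (SE) and an adjusted p of 0.9995 by edgeR, and 0.64 without the 3 central libraries. C1qtnf5, a secreted RPE protein, was at 243 ± 77.7 against 110 ± 56.1 CPM, with a log2 fold change of 1.15 that was 0.71 without the 3 central libraries, and its exons overlap those of Mfrp. Cdh3, the P-cadherin of RPE junctions, was at 124 ± 60.7 against 58.7 ± 32.3 CPM and higher in 5 of 5 animals, with a log2 fold change of 1.102 that was 1.12 without the 3 central libraries. In the Wnt list, ranges did not overlap for 1 of 13 tested genes, beside 0.535% of all genes tested that were higher in this way. With 36 lists described, a single such member is no trait of its list. That gene, Lrp6, a Wnt co-receptor, was at 60.1 ± 20.7 against 16.2 ± 12.5 CPM. Its log2 fold change was 1.90, and 1.43 without the 3 central libraries. Vim, vimentin, was at 32.9 ± 9.98 against 75.5 ± 41.4 CPM and lower in 4 of 5 animals.

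All 13 mitochondrially encoded genes were lower in the periphery, with a median log2 fold change of −1.15, and 12 had an unadjusted p under 0.05 by edgeR, none with an adjusted p below 0.9995. They come from 1 genome and share the library composition given above, so they are not 13 separate results. Without the central library of mouse 5 the median was −0.64 and 0 had an unadjusted p under 0.05 by edgeR. Without the 3 central libraries the median was −0.01, with 7 lower and 6 higher. Of 37 nuclear genes of the respiratory chain 31 were lower, with a median of −0.21.

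**Figure D5:**
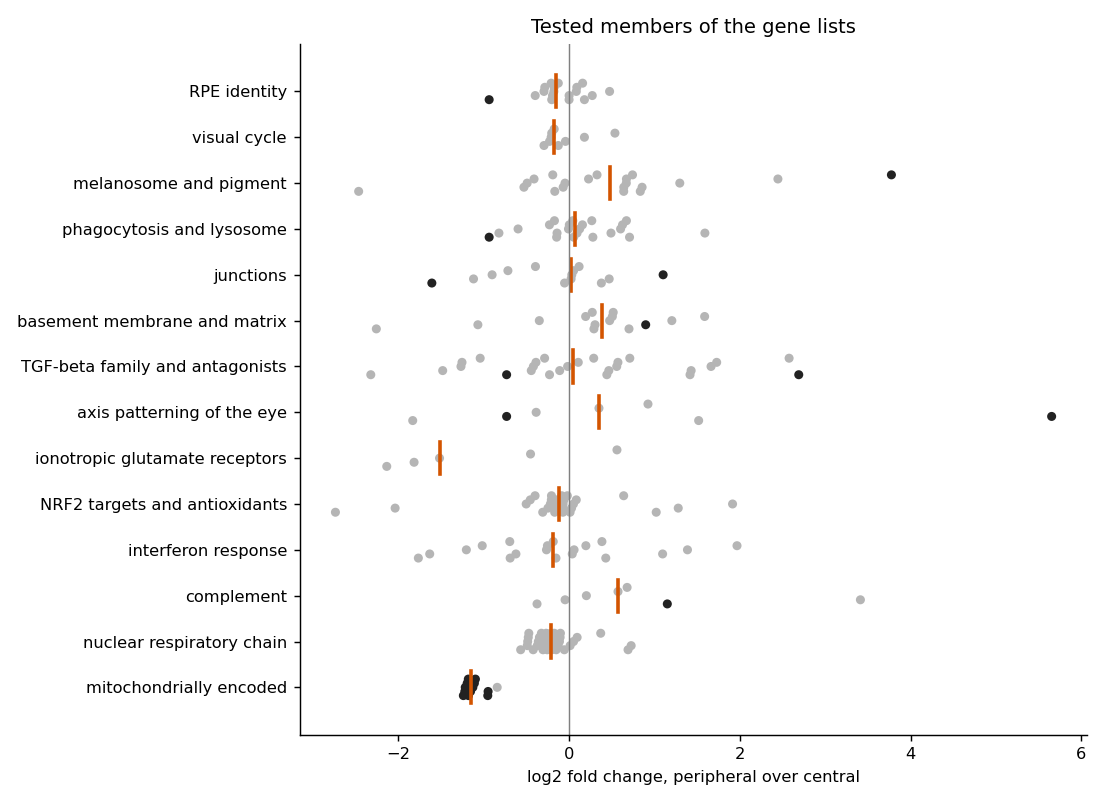
Log2 fold change of peripheral over central GFP- RPE for the tested members of 14 gene lists, 1 point a gene, black where the unadjusted p was under 0.05 and grey otherwise, with the list median as an orange bar. The mitochondrially encoded genes sit together at a median of −1.15, and the other medians lie between −1.52 and 0.57.

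Among the 157 genes chosen by the naming rule, 12 nuclear ones were higher in both libraries with the highest mitochondrial share, the central ones of mice 5 and 7, than in any of the other 9. Many named genes were picked for a small p and the share over all genes tested was not taken. The 12 therefore do not tell how common this was. Nrf1, a transcription factor of mitochondrial genes, was at 4563 and 1589 CPM in the libraries of the centre from mice 5 and 7 and at 224 to 857 CPM in the other 9. Bhlhe41, a repressor of the circadian clock, was at 5681 and 2186 CPM in those 2 and at 426 to 1378 CPM elsewhere. Cldn19, the main claudin of RPE, was at 1037 and 386 CPM there and at 54.4 to 172.5 CPM elsewhere. Tnfrsf14, a receptor of the TNF family, was at 827 and 288 CPM there and at 50.6 to 147 CPM elsewhere. Their log2 fold changes of −1.64, −1.22, −1.61 and −1.52 became 0.16, 0.07, 0.06 and 0.03 without the 3 central libraries. Among the other 8, Grik4, Stat2, Ccnd2 and Mc1r went from −1.52, −1.76, −1.25 and −1.44 to 0.09, 0.05, 0.08 and 0.02, and Pde6a, Grin2a and Epha5 from −1.97, −1.81 and −1.83 to −0.43, −0.36 and −0.80. Gstt2 went from −0.68 to −0.64. The part of library composition in these genes was not tested.

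Stress and immune genes gave no call. Of 28 tested NRF2 targets and antioxidant genes 20 were lower, with a median log2 fold change of −0.12. Ranges did not overlap for 1 of the 28, Ftl1, the ferritin light chain, beside 0.189% of all genes tested that were lower in this way. Ftl1 was at 2143 to 3074 CPM in peripheral and 3211 to 4136 CPM in central libraries. It was lower in 5 of 5 animals (log2 fold change −0.40, edgeR unadjusted p = 0.0662). Nfe2l2, the gene of NRF2, was at 86.4 ± 31.5 CPM (SD, n = 5) against 90.8 ± 83.5 CPM (SD, n = 6). Hmox1, haem oxygenase, was above 3 counts in 1 peripheral library, at 313 counts, and in 4 central ones, at 86 to 465 counts. Of 19 tested interferon genes 11 were lower, with a median of −0.18. Casp1 was at 0 in all 11 libraries, and Il18, a cytokine that caspase-1 matures, was at 60.5 ± 32.6 against 74.2 ± 40.0 CPM. Il17re, a receptor for interleukin 17C, was at 58.9 ± 21.1 against 34.6 ± 14.6 CPM and higher in 4 of 5 animals. Of 5 tested ionotropic glutamate receptors 4 were lower, with Grik4 at 10.4 ± 3.57 against 30.7 ± 33.2 CPM. Without the 3 central libraries their median log2 fold change of −1.52 became −0.36, and that of Grik4 changed sign.

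Markers of other cells were absent in part. Of 11 endothelial markers 7 were at or under 3 counts in every library, among them Pecam1 and Cdh5, and of 12 macrophage and microglia markers 9, among them Aif1 and C1qa. The macrophage list nevertheless summed to 103 to 143 CPM in peripheral and 70.4 to 139 CPM in central libraries, nearly all of it Csf1r, the receptor of CSF1, at 119.9 ± 18.4 against 95.3 ± 28.7 CPM. Of 21 photoreceptor markers 6 were, among them Nrl and Nr2e3, and the list summed to 139 to 191 CPM in peripheral and 130 to 292 CPM in central libraries. Of 6 melanocyte markers 2 were, and the list summed to 48.7 to 129 against 45.1 to 172 CPM, with Sox10, a factor of the neural crest, at 63.6 ± 23.1 against 75.0 ± 32.1 CPM. Of 13 choroid stroma and pericyte markers 4 were, and the list summed to 144 to 241 against 3.53 to 344 CPM, most of it Acta2, smooth muscle actin, at 168.5 ± 51.1 against 176 ± 128 CPM. Of 8 Mueller glia and astrocyte markers 2, Gfap and Aqp4, were at or under 3 counts throughout. The list nevertheless summed to 4909 to 7972 CPM in peripheral and 3960 to 10320 CPM in central libraries. Its 3 members tested by edgeR, Glul, Apoe and Car14, had log2 fold changes of 0.10, −0.11 and 0.04. Which cells this sum came from was not tested. The ciliary and iris epithelium list summed to 40580 ± 3643 CPM (SD, n = 5) against 44770 ± 16590 CPM (SD, n = 6), of which Ptgds, a gene that RPE also uses, was 40090 and 44100 CPM.

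The peripheral GFP+ RPE libraries came from the same part of the eyecup as peripheral GFP- RPE, and their values are given without a test. The paper found GFP mainly in the dorsal periphery. Place within the peripheral part and GFP status therefore cannot be told apart here. Wfikkn2 was at 213 ± 139 CPM (SD, n = 6) there, beside 166 ± 91.3 in peripheral and 25.9 ± 10.5 in central GFP- RPE. Trpm1 was at 7.05 to 45.8 CPM in all 6 of them. Lgi1 was at 50.1 ± 29.0 CPM, beside 17.4 ± 11.5 and 1.18 ± 0.60 CPM. Trhde was at 4.50 ± 4.96 CPM, beside 25.8 ± 12.3 and 108 ± 60.04 CPM, and Mertk at 69.6 ± 30.7 CPM, beside 66.1 ± 12.03 and 128 ± 37.9 CPM. Other named genes did not repeat the peripheral GFP- level. Vim was at 163 ± 47.1 CPM, beside 32.9 ± 9.98 and 75.5 ± 41.4 CPM. Proser3 had 0 counts in all 6 GFP+ libraries. Igsf21 had 310 counts in the GFP+ library of mouse 4, 1 in that of mouse 7 and 0 in the rest.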

How the data were processed

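The authors deposited raw whole-number counts, 1 row a gene symbol, made from SMART-Seq libraries. The submitters' processing notes list fastp, Salmon and GRCm38.p6; strand and annotation are not given in the sources used here. Columns were mapped to samples by their titles. Genes were filtered with filterByExpr, scaled by TMM and tested on the 11 libraries without covariates with edgeR (version 4.0.16), with Benjamini-Hochberg adjustment. DESeq2 (version 1.42.0) and limma voom (version 3.58.1) were alternatives. Named genes were the markers and Serpine3, the 12 highest and 12 lowest fold changes with ranges that do not overlap and a mean count of at least 10, genes of the study's text, and the 4 smallest p of each list with members needed to describe it. Of the 12 highest, 1 gene is not reported here. Members and lists were chosen with earlier results of these data known. Floors of 3 counts cover counting error only. The edgeR steps were tested on simulated data.

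Libraries with the same animal number came from the same animal, by the labels. Their deviations from the group means correlated by 0.00974 to 0.0959 over 5 pairs. The highest correlation of log counts over the 55 pairs of libraries was 0.924, so no library was treated as a copy.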

Additional observations from a re-analysis of the deposited data

Results flagged for a closer look

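In 12 of 86 groups of values 1 library lay far from the others of its group, where chance would give about 1 in 20. Among genes higher in the periphery, a central library was high for Tbx2 (5 counts), Pag1 (36) and Igsf21 (39) in mouse 2, and for Ighmbp2 (7) in mouse 7. In CPM, the central library of mouse 4 was high for 1190007I07Rik (908 counts, 87.1 CPM), Mertk (2108 counts, 202.3 CPM) and Mrpl34 (1348 counts, 129.3 CPM). The next highest central libraries were at 38.4, 129.3 and 83.3 CPM. In counts it did not stand apart for Mertk and Mrpl34, where the central library of mouse 2 held 2036 and 1469. A peripheral library was low in CPM for Olfr784 (32 counts, 1.61 CPM, mouse 2) and Actr3 (708 counts, 38.5 CPM, mouse 1). The next lowest peripheral libraries were at 3.38 and 69.4 CPM, and for Olfr784 that of mouse 7 was close in counts (37). A peripheral library was high for Serpine3 (5 counts, mouse 1) and Hmox1 (313, mouse 1). Plin2 was low in the central library of mouse 5 (270 counts). Over animals with both libraries, Ezr was higher in the periphery by 137.4 CPM in mice 1 and 2 and differed by −134.6 CPM in mice 4, 5 and 7. The central library of mouse 6, at 659 CPM, did not enter. The difference between these animals was not tested by itself.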

How the results depend on the processing

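With 5 and 6 pools of few cells, large changes may be missed as well as small ones. Leaving out 1 library at a time gave 0 calls in every case. DESeq2 called 18 genes higher and 11 lower. Chosen after seeing the data, once edgeR's quasi-likelihood test had given 0 calls, the edgeR likelihood-ratio test and the edgeR exact test each called 1 gene, Wfikkn2 (adjusted p = 0.00535 and 0.00604), and leaving out the central libraries of mice 4, 5 and 7 called 1, Upk3b (adjusted p = 0.00629); without both libraries of mouse 5 there were 0. The difference of the position effect between runs of animal numbers was called for 53 genes by DESeq2 and 0 by edgeR (218 at an unadjusted p under 0.05). With the animal as replicate block 0 genes were called; the difference of summed CPM became 382.9 for Mueller glia and −5.79 for choroid markers, and that of Nfe2l2 0.82 on the log2 scale. The median of all genes shifted to 0.50 under limma voom, 0.49 under the block and −0.15 under DESeq2. Otx2, near 0, changed sign: −0.00974 with DESeq2, −0.0238 with median-of-ratios size factors, −0.00395 with TMMwsp scaling, −0.0163 with mitochondrial genes removed, −0.0126 with all 3 groups fitted, and −0.0707 to 0.0732 leaving out 1 library (−0.0347 without the central library of mouse 1). Ezr, near 0, changed sign: −0.0187 with DESeq2, −0.0322 with median-of-ratios size factors, −0.00805 with TMMwsp scaling, −0.0229 with mitochondrial genes removed, −0.000110 with a filter of at least 10 counts in 5 libraries, −0.0161 with all 3 groups fitted, −0.00625 with counts thinned to the smallest total, and −0.0993 to 0.0907 leaving out 1 library (−0.0337 without the central library of mouse 2). Nfe2l2, near 0, changed sign: 0.59 with limma voom, 0.82 with the animal as replicate block, 0.12 with the run as a covariate, 0.30 with the 3 central libraries left out, and −0.29 to 0.45 leaving out 1 library (0.0982 without the peripheral library of mouse 1). Without the 3 central libraries Tomm20, Tnfrsf14 and Il18 reversed to 0.0263, 0.0266 and 0.50. Leaving out 1 library moved peripheral minus central sums over −89.14 to −56.7 CPM for photoreceptor, 9.035 to 19.01 for bipolar, −889.7 to 382.9 for Mueller glia, −1.7 to 4.326 for endothelial, −27.84 to 40.19 for choroid and 22.3 to 35.95 for macrophage markers. It moved pseudo-F over 1.03 to 1.399, the ratio of distances over 1.302 to 1.64 (1.38 without the peripheral library of mouse 1), Trpm1 over 2.14 to 3.37 (2.19 without the peripheral library of mouse 2, 2.71 without the central one of mouse 1) and Pmel over 0.49 to 1.498. Trpm1 was 4.06 with a pseudocount of 0.1. The cause was not tested.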

Other observations

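Upk3b, a uroplakin of apical membrane plaques, was singled out after its values were seen. It had 637, 1773, 2604, 442 and 712 counts in the peripheral libraries of mice 1, 2, 4, 5 and 7. In the centre, mice 1, 2, 4, 5, 6 and 7 gave 0, 0, 401, 1, 0 and 8 counts. The ranges overlapped through the central library of mouse 4 alone, at 38.5 CPM, beside 34.6 CPM in the lowest peripheral library. The log2 fold change was 3.38 ± 1.62 (SE), with an adjusted p of 0.9995 by edgeR, and the peripheral library was higher in 5 of 5 animals.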
